A study of Mus musculus with 2 samples.

Results

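Notch receptors, ligands and targets were followed from brown preadipocytes (D0) to brown adipocytes (D7). The group held 10 genes taken by name, that is, the receptors Notch1, Notch2, Notch3 and Notch4, the ligands Jag1, Dll1 and Dll4, and the target genes Hes1, Hey1 and Heyl. All 10 were present among the 23361 genes with values. Both groups came from interscapular brown fat of newborn C57BL/6 mice (C57BL/6J in the methods of the study), with 1 library per stage. The labels describe primary cultures, whereas the methods of the study describe immortalization of such cells with a retroviral large T plasmid. Several pups of either sex were used, and whether their cells were pooled is not given in the sources used here. According to the labels, cells of both stages were first kept in DMEM that held insulin at 0.1 μM, T3 at 1 nM and FBS at 10%, and the D0 cells were taken before induction. The D7 cells had then received IBMX at 0.5 mM, dexamethasone at 2 μg/ml and indomethacin at 0.125 mM for 2 days, and afterwards the same medium without these inducers until collection. The methods of the study give other concentrations of insulin and dexamethasone.

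Notch receptors are membrane proteins that are switched on by a ligand on a neighbouring cell. The protease ADAM10 and then γ-secretase cut the receptor, and the freed intracellular part joins the DNA-binding protein RBPJ and a Mastermind coactivator in the nucleus. Genes of the Hes and Hey families, which encode repressors with a basic helix-loop-helix domain, are among the best known targets. In adipose tissue, Notch signalling is known as a pathway that can restrain thermogenic genes.

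Expression was given as FPKM, a fragment count scaled to the length of the transcript and to the depth of the library, so that levels of different genes can be set beside each other per length. The number of fragments behind each value was recovered from the spacing of low values, which placed the depth at 21469676 fragments at D0 and 18266002 at D7. The 95% intervals given with the values were computed from such fragment numbers. Only counting error enters them, and they say nothing of the spread between cultures, which 1 library per stage cannot give. No p-value was therefore computed, and a gene was called changed where the ratio of D7 to D0 was at least 2.0 or at most 0.5, the fold that the study also applied. In bulk RNA, fewer cells of a type and less RNA per cell cannot be told apart. The labelled cell types were checked first, and the preadipocyte genes did not all follow the labels. Of 10 adipocyte genes, 9 were above 0 in both libraries and all 9 were past 2.0-fold higher at D7, and Ucp1, the uncoupling protein of brown fat, was listed at 0 in the D0 library and stood at 4.57 FPKM in the D7 library. Of 8 brown adipocyte genes, 4 were listed at 0 at D0 only, 3 were higher by at least 2.0-fold and Prdm16, a regulator of brown fat identity, had a ratio of 1.22. Of 8 preadipocyte genes, 2 were lower by at least 2.0-fold (Thy1 at 0.469 and Col1a1 at 0.316), 3 were higher (Cd34 at 8.29, Dlk1 at 10.8 and Dpt at 2.07) and 3 were within it, among them Pdgfra at 0.973.

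FPKM was above 0 in both libraries for 9 of the 10 Notch genes. At D7, 2 of these 9 were higher by at least 2.0-fold (Jag1 and Heyl), against 18.5% of all 14986 genes above 0 in both libraries. Lower by at least 2.0-fold was 1 gene (Hes1), against 13.2% of all genes. The share of changed Notch genes, 33.3%, was near the 31.7% of all genes, so the number of changed genes does not set this group apart. By role, the 4 receptors were each within 2.0-fold, the ligand Jag1 was higher, and of the targets Hes1 was lower and Heyl higher. Heyl rests on 1 and 6 fragments, and its interval of 0.856 to 324 includes 1. Dll1 and Hey1 were within 2.0-fold, and differences between roles were not tested. The median log2 ratio of the 9 genes was 0.39, and that of all genes was 0.02. That median is the value of Hey1, which rests on 10 and 11 fragments. The interval of its ratio, 0.498 to 3.40, includes 1, so no shift of the group is read from the median. Only 5 of the 10 genes reached an FPKM of 1 in a library, namely Notch1, Notch2, Notch3, Jag1 and Hes1, and 2 of these 5 were past 2.0-fold, against 27.6% of the 11967 genes at that level. Of these 5 genes, 1 was higher, against 15.6% of the genes at that level, and 1 was lower, against 11.9%.

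**Figure D1:**
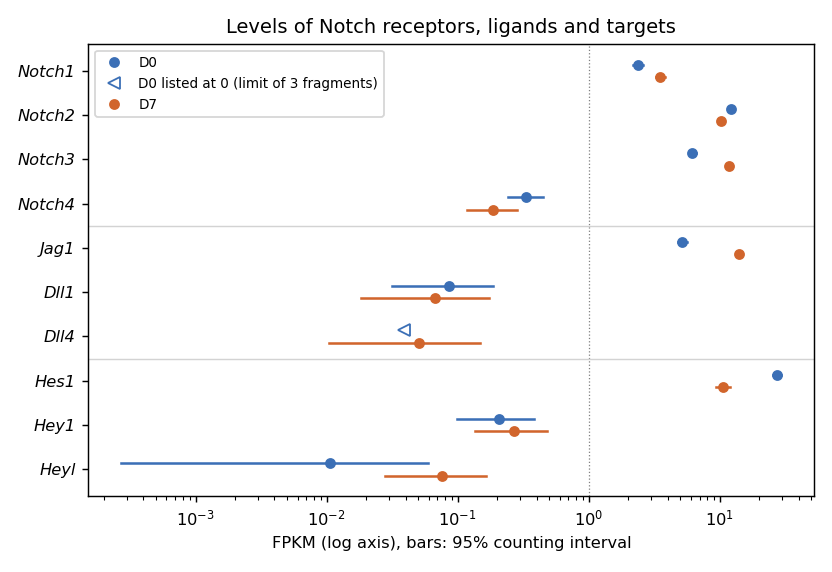
FPKM of each gene at D0 and D7 on a log axis, with receptors at the top, ligands in the middle and targets at the bottom. Points are the deposited values and bars are 95% counting intervals; the open triangle is the limit of 3 fragments for Dll4 at D0. Hes1 lay highest at D0 (27.5) and Jag1 at D7 (13.9), and the 5 genes left of the dotted line stayed under an FPKM of 1 at both stages.

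Sequences upstream of the transcription start are shown for the ligand and the receptor with the highest ratios among the genes that reached an FPKM of 1 (Jag1 and Notch3), and for Notch2, a receptor of similar abundance with a ratio under 1. They come from RefSeq on GRCm38.p6, the assembly of mm10, and are given 5′ to 3′ on the strand of the gene. Bases within the gene as annotated by GENCODE were left out, so 126 bases are shown for Jag1 (chr2:137116645-137116770, minus strand), 250 for Notch3 (chr17:32166891-32167140, minus strand) and 239 for Notch2 (chr3:98013288-98013526, plus strand). Capitals mark matches to GGGCGG, the GC box bound by Sp and KLF factors, and to CACNAG, the N box bound by Hes proteins, on either strand.
Jag1: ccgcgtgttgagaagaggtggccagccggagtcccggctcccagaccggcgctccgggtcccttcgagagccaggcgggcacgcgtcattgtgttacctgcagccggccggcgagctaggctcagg
Notch3: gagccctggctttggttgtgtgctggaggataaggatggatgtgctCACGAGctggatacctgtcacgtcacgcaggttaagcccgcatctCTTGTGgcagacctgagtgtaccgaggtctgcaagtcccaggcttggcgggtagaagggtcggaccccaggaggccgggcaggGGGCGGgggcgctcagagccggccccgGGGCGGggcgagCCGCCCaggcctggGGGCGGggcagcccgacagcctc
Notch2: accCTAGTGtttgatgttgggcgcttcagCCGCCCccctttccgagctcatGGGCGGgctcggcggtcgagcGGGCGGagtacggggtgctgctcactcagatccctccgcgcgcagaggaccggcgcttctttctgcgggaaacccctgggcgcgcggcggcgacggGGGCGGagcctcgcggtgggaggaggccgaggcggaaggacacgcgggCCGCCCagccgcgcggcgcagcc

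Upstream windows of 250 bases were searched for these letters, for GTGGGAA (the core bound by RBPJ) and for CACGTG (a class B E box), on both strands. Entries existed for 7 of the 10 genes, with 8 windows in all. Hes1, Hey1 and Heyl had no entry. The Notch1 window (chr2:26503823-26504072) and the Dll1 window at chr17:15375824-15376073 lie upstream of a RefSeq start. Both fall wholly within the gene as annotated by GENCODE. The GC box stood 4 times in the Notch3 window, 5 times each in those of Notch1 and Notch2 and 2 times in that of Dll4. It did not occur in the windows of Jag1, Notch4 and Dll1. Of the windows of all 32851 entries, 32.7% held it. The windows with the GC box had a GC content of 65.6% to 72%, and those without it 56% to 64%. The median over all entries was 52.4%. The N box stood 2 times in the Notch3 window and once each in those of Notch1, Notch2 and Dll4, and 36.7% of all windows held it. The letters GTGGGAA, present in 5.42% of all windows, and CACGTG, present in 6.02%, were not in any of the 8 windows. None of the 4 motifs contains another, and a match describes letters in a short window, not binding.

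The receptors summed to 21.0 FPKM in D0 cells and 25.7 FPKM in D7 cells (ratio 1.23), and their proportions shifted. Notch2 (ENSMUSG00000027878.11, chromosome 3, 98013527 to 98150361, plus strand), a broadly expressed receptor, stood at 12.1 FPKM at D0 and 10.3 FPKM at D7. It was the most abundant receptor at D0 and was slightly lower at D7, with a ratio of 0.847 (95% interval 0.798 to 0.898) on 2687 and 1935 fragments. Notch3 (ENSMUSG00000038146.8, chromosome 17, 32120820 to 32166852, minus strand), the receptor best known from the smooth muscle of vessels, was measured at 6.15 FPKM in D0 cells and 11.8 FPKM in D7 cells. It was the most abundant receptor at D7, and its ratio of 1.91 (1.77 to 2.07) lay just under the threshold, with an interval that includes 2.0. Notch3 thus made up 29.3% of the summed receptor FPKM at D0 and 45.7% at D7, while the share of Notch2 went from 57.8% to 39.9%. Within each library, which needs no scaling between libraries, the level of Notch3 was 0.508 times that of Notch2 at D0 and 1.15 times at D7, a change of 2.26-fold (2.05 to 2.49).

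Notch1 (ENSMUSG00000026923.15, chromosome 2, 26457903 to 26516663, minus strand), the receptor first tied to T cell fate and leukemia, reached 2.37 FPKM at D0 against 3.52 FPKM at D7. Notch1 was higher at D7 with a ratio of 1.49 (1.32 to 1.68), and its share of the receptor total was 11.3% at D0 and 13.7% at D7. Notch4 (ENSMUSG00000015468.14, chromosome 17, 34564268 to 34588503, plus strand), a receptor mainly of endothelium, stood at 0.333 FPKM at D0 and 0.188 FPKM at D7, on 46 and 22 fragments. It stayed the rarest receptor at both stages, and its ratio of 0.562 had a wide interval from 0.322 to 0.954. Of 14 endothelial markers, 4 (Tie1, Cldn5, Robo4 and Sox17) were listed at 0 at both stages and Pecam1 had 1 fragment in each library. Of the 8 endothelial markers above 0 in both libraries, 2 were higher by at least 2.0-fold (Kdr at 2.18 and Tek at 3.11), 3 were lower (Cdh5 at 0.181, Esam at 0.294 and Egfl7 at 0.407) and 3 were within it. Cdh5 rests on 13 and 2 fragments and Esam on 4 and 1, and the interval of Esam included 1. Sox18 and Erg were listed at 0 at D0 and had 6 and 2 fragments at D7. The summed FPKM of the endothelial list was 5.56 at D0, of which Egfl7 held 3.83, and 4.53 at D7. The part of endothelial cells in the values of Notch4 and Dll4 was not tested. The labels do not tell whether strand was used in counting. Annotated genes on the opposite strand overlap the loci of Notch1, Notch3, Notch4, Dll1 and Dll4, and others on the same strand lie within Notch1 and Notch2, so their values are less certain than those of Jag1, Hes1, Hey1 and Heyl, which no other gene overlaps.

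**Figure D2:**
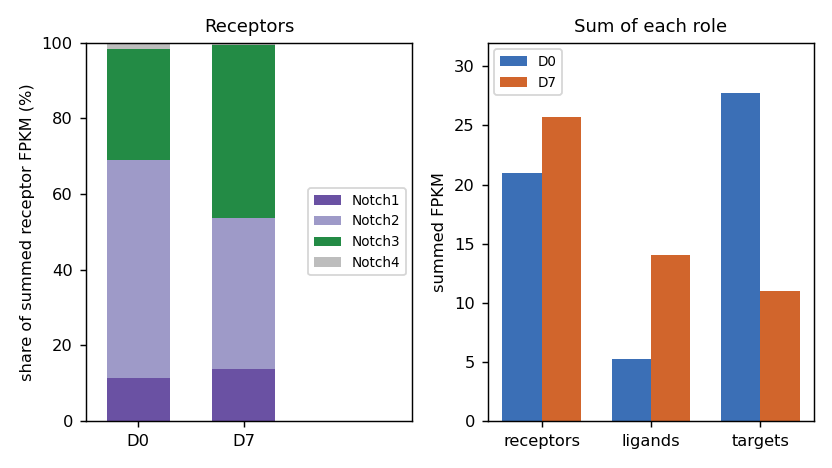
Left, share of each receptor in the summed FPKM of the 4 receptors (%), by library. Right, summed FPKM of the 4 receptors, 3 ligands and 3 targets at D0 and D7. Notch3 took 29.3% of the receptor total at D0 and 45.7% at D7; the ligand sum went from 5.27 to 14.02 and the target sum from 27.7 to 10.96.

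Among the ligands, Jag1 made up nearly all of the summed FPKM and was higher at D7. Jag1 (ENSMUSG00000027276.7, chromosome 2, 137081456 to 137116644, minus strand), a Jagged-type membrane ligand, was measured at 5.19 FPKM in D0 cells and 13.9 FPKM in D7 cells, on 605 and 1379 fragments. The D7 level was 2.68 times that at D0 (95% interval 2.43 to 2.95), and the whole interval lay past 2.0-fold. Jag1 was above 46.1% of the genes above 0 in both libraries at D0 and above 66.4% of them at D7. It held 98.4% of the summed FPKM of the 3 ligands at D0 and 99.2% at D7.

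The Delta-type ligands were at the edge of detection. Dll1 (ENSMUSG00000014773.13, chromosome 17, 15367354 to 15376872, minus strand) reached 0.0860 FPKM at D0 against 0.0675 FPKM at D7, or about 6 and 4 fragments. Its ratio of 0.784 had an interval from 0.163 to 3.30, so a change of Dll1 was not detectable at this depth. Dll4 (ENSMUSG00000027314.6, chromosome 2, 119325784 to 119335962, plus strand), a ligand typical of arterial and sprouting endothelium, was listed at 0 in the D0 library and stood at 0.0502 FPKM in the D7 library. These values stand for 0 and about 3 fragments. Because Dll4 was listed at 0 at D0, no ratio was formed for it. The limit of 3 fragments was 0.0392 FPKM at D0 and 0.0461 FPKM at D7. The counting interval at D7, 0.0104 to 0.147 FPKM, reached below both.

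The targets did not move as a group. Hes1 (ENSMUSG00000022528.8, chromosome 16, 30064384 to 30067796, plus strand), a transcriptional repressor that also responds to signals other than Notch, stood at 27.5 FPKM at D0 and 10.6 FPKM at D7, on 760 and 249 fragments. Its level at D7 was 2.59-fold lower, a ratio of 0.386 (95% interval 0.332 to 0.445), and the whole interval lay below 0.5. Hes1 was above 80.8% of the genes above 0 in both libraries at D0 and above 60.1% of them at D7. It made up 99.2% of the summed FPKM of the 3 targets at D0 and 96.8% at D7, so the fall of that sum from 27.7 to 10.96 is essentially that of Hes1.

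The Hey genes were rare at both stages. Hey1 (ENSMUSG00000040289.8, chromosome 3, 8663359 to 8667256, minus strand), a repressor of the heart and vessels, was measured at 0.207 FPKM in D0 cells and 0.271 FPKM in D7 cells, on 10 and 11 fragments. With an interval from 0.498 to 3.40 around a ratio of 1.31, no difference of Hey1 was detectable at this depth. Heyl (ENSMUSG00000032744.4, chromosome 4, 123233556 to 123249875, plus strand), a relative of Hey1 found in mural cells, reached 0.0107 FPKM at D0 against 0.0755 FPKM at D7. Although the ratio of Heyl was 7.06, only 1 fragment at D0 and 6 at D7 lay behind it, and the interval ran from 0.856 to 324. Of 11 mural cell markers, 2 were higher by at least 2.0-fold (Rgs5 at 2.89 and Kcnj8 at 2.22), 6 were lower and the other 3 were under 2.0-fold. Their summed FPKM was 4188 at D0 and 753 at D7. Most of that sum came from Acta2 (2164 and 319 FPKM) and Tagln (1523 and 308 FPKM), so it mainly follows these 2 genes. Of the markers, Rgs5 stood at 0.571 FPKM at D0 and 1.65 FPKM at D7, while Pdgfrb stood at 114 and 38.9 FPKM. The part of mural cells in the values of Notch3 and Heyl was not tested.

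**Figure D3:**
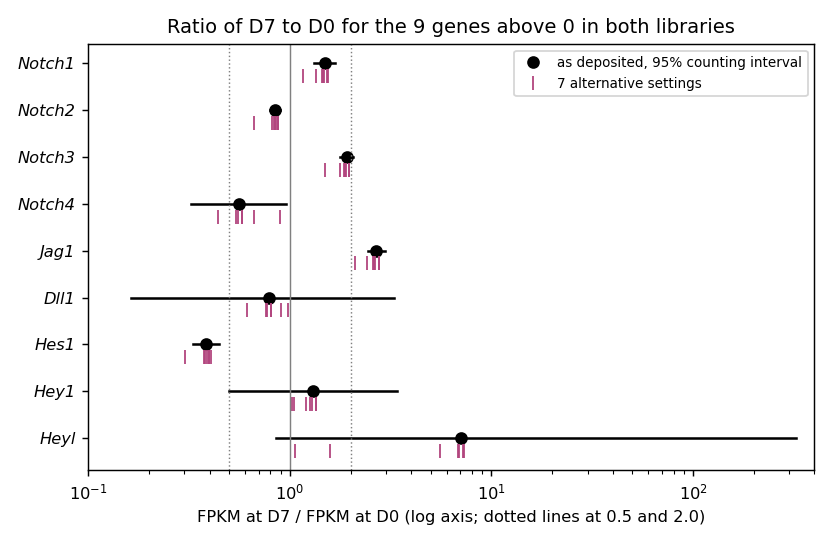
Ratio of FPKM at D7 to that at D0 for the 9 genes above 0 in both libraries, on a log axis. Black points are ratios of the deposited values with 95% counting intervals, and the ticks below them are the same ratio under 7 other settings. The intervals of Jag1 (2.43 to 2.95) and Hes1 (0.332 to 0.445) lay wholly past 2.0-fold, and that of Heyl (0.856 to 324) spans 1.

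The counting interval excluded 1 for 6 of the 9 ratios. The intervals of Notch1, Notch3 and Jag1 lay above 1 and those of Notch2, Notch4 and Hes1 below it, while Dll1, Hey1 and Heyl could not be placed on either side. The order of levels changed between the stages. At D0 it ran from Hes1 through Notch2, Notch3 and Jag1 to Notch1, and no neighbouring pair of these had overlapping intervals. At D7 it ran from Jag1 through Notch3, Hes1 and Notch2 to Notch1, and there the intervals of Hes1 overlapped those of both of its neighbours, Notch3 and Notch2. The 5 genes under an FPKM of 1 had intervals that overlapped those of the next in order at both stages. Between the 5 abundant genes, all 10 pairs changed their relative level by more than counting error. The widest divergence was that of Jag1 against Hes1, with a level of Jag1 0.189 times that of Hes1 at D0 and 1.31 times at D7, a change of 6.94-fold (5.85 to 8.25). The closest pair was Notch3 and Notch1, which diverged by 1.28-fold (1.11 to 1.48).

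Another 84 genes of the pathway were listed as context, of which 75 were above 0 in both libraries. At D7, 10 of them were higher by at least 2.0-fold and 7 were lower, or 22.7% of the 75, against 31.7% of all genes. Their median log2 ratio was -0.07. FPKM reached 1 in a library in 11 of the 17 changed genes. The changed genes lay mostly among ligands, Fringe enzymes and modulators, and no gene of receptor cleavage or of the corepressors was changed by this measure.

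Of the other ligands, 6 of 7 were above 0 in both libraries, with 3 higher and 3 lower by at least 2.0-fold. The lower ones include Dlk2, on 15 and 5 fragments, with an interval from 0.111 to 1.13 that includes 1. The higher ones include Cntn1, on 6 and 42 fragments, which stayed under an FPKM of 1 in both libraries. Dlk1, a Delta-like protein without the domain that activates Notch, was measured at 3.57 FPKM in D0 cells and 38.5 FPKM in D7 cells. Dner, a neuronal protein proposed as a ligand, was lower, from 8.93 FPKM in D0 cells to 3.16 FPKM in D7 cells, a ratio of 0.354 with an upper bound of 0.415. Nov, a secreted matrix protein that binds Notch1, was the most abundant of the list and fell from 193 to 72.6, a ratio of 0.377 (0.362 to 0.391). The other Jagged gene, Jag2, named here after its values were seen, reached 0.0361 FPKM at D0 against 0.283 FPKM at D7, a ratio of 7.84 (2.54 to 29.0) on 4 and 25 fragments. Both Jagged ligands were thus higher at D7, and Jag2 remained far below Jag1.

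Fringe enzymes add a sugar to Notch receptors and so tune which ligands activate them, and the members of this family differed. Lfng stood at 1.97 FPKM at D0 and 13.1 FPKM at D7, a ratio of 6.65 (5.29 to 8.40). Mfng went from an FPKM of 0.0281, which is 1 fragment, to 1.33, with a ratio of 47.1 (8.18 to 1949). Rfng, already at 7.33 at D0, had 10.8 at D7 and a ratio of 1.47 (1.26 to 1.72). Pofut1 and Poglut1, which place the first sugars on the receptor, were lower without reaching 0.5, with ratios of 0.571 (0.532 to 0.611) and 0.671 (0.616 to 0.729). Genes of macrophages moved in the same libraries, with 10 of 10 markers higher by at least 2.0-fold and a summed FPKM of 150 at D0 and 575 at D7, and their part in the values of Mfng and Lfng was not tested.

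The machinery that cuts the receptor showed no change past the threshold. All 10 genes of this list were within 2.0-fold, with ratios between 0.665 and 1.68. Adam10, the protease of the first cut after ligand binding, was measured at 34.2 FPKM in D0 cells and 29.3 FPKM in D7 cells. The γ-secretase subunits Psenen (84.7 and 100.4) and Ncstn (71.7 and 47.7) were the most abundant of the list.

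In the nuclear complex, 7 of 8 genes above 0 in both libraries had a ratio below 1, while 50.6% of all genes had a ratio above 1. Only Kat2b, an acetyltransferase, was changed, at 2.01 (1.84 to 2.21). That call ended with scaling to TPM (1.98), to the upper quartile (1.95) or to library medians (1.58). Rbpj, which carries the whole pathway to DNA, reached 27.01 FPKM at D0 against 15.05 FPKM at D7, a ratio of 0.557 (0.523 to 0.593). The coactivator Maml1 had a ratio of 0.613 (0.560 to 0.670), while Maml2 at 0.967 (0.881 to 1.06) could not be separated from 1. Neither could Maml3 at 0.938 (0.753 to 1.17). Snw1, the most abundant of the list (35.2 and 34.5 FPKM), also had an interval that included 1, at 0.981 (0.909 to 1.06). Among the corepressors, Hdac1 and Ctbp1 were the most abundant, with ratios of 0.617 and 0.740.

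Modulators of ligand and receptor turnover showed changes in single genes, and 6 of 8 genes of ligand endocytosis and 11 of 14 of receptor turnover were within 2.0-fold. Dtx4, a Deltex ubiquitin ligase that acts on Notch, stood at 1.39 FPKM at D0 and 12.3 FPKM at D7, a ratio of 8.85 (7.44 to 10.5). Egfl7, a secreted protein that can bind Notch and is also an endothelial marker, had a ratio of 0.407 (0.262 to 0.595). Neurl1a, a Neuralized ubiquitin ligase acting on ligands, was lower, from 2.12 FPKM in D0 cells to 0.391 FPKM in D7 cells, a ratio of 0.185 (0.118 to 0.272). Neurl1b, named after its values were seen, went the other way, with a ratio of 5.54 (2.41 to 14.8). It rests on 7 and 33 fragments and stayed under an FPKM of 1 in both libraries. Nedd4, the most abundant gene of these lists, had 442 and 357, and Mib1, which most cells use for ligand uptake, had a ratio of 1.31 (1.16 to 1.47). Nrarp, a feedback inhibitor that Notch itself induces and that is named here after its values were seen, had 1 fragment at D0 and 3 at D7, and its ratio of 3.53 had an interval from 0.283 to 185.

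**Figure D4:**
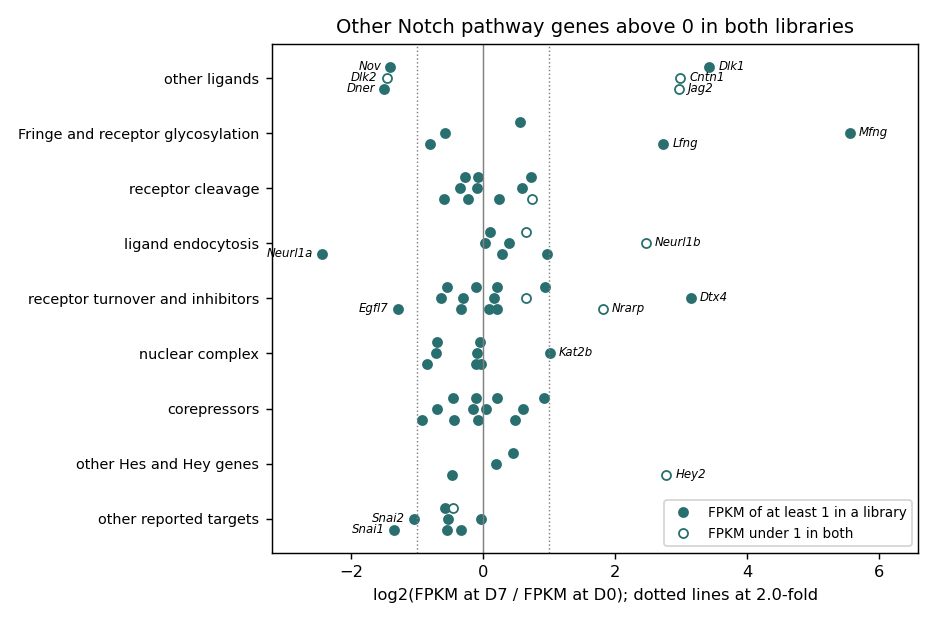
Log2 ratio of FPKM at D7 to D0 for the 75 other pathway genes above 0 in both libraries, by list. Filled points reached an FPKM of 1 in a library, open points did not, and genes past the dotted lines at 2.0-fold are named. Receptor cleavage genes and corepressors lie within the lines, and Mfng, Dlk1 and Dtx4 lie farthest to the right.

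Of the other Hes and Hey genes, 4 of 9 were above 0 in both libraries, and none of these 4 was lower by 2.0-fold. Hes6, which opposes Hes1 in other tissues, was measured at 13.1 FPKM in D0 cells and 18.0 FPKM in D7 cells, a ratio of 1.37 (1.18 to 1.59). Bhlhe40, a related repressor that hypoxia and the clock also induce, had a ratio of 1.15 (1.07 to 1.23). Bhlhe41, named after its values were seen, was lower, with a ratio of 0.721 (0.570 to 0.907) on 199 and 122 fragments. Hey2, named after its values were seen, reached 0.119 FPKM at D0 against 0.815 FPKM at D7, a ratio of 6.87 (2.85 to 19.9) on 6 and 35 fragments. Hes5 and Helt were listed at 0 in both libraries. Hes2 and Hes3 were at 1 fragment at D0 and listed at 0 at D7, and Hes7 was listed at 0 at D0 and had 2 fragments at D7, all under the limit of 3 fragments.

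The other genes reported as Notch targets in various tissues all had ratios below 1 where a ratio could be formed, 8 of 8, and 2 were changed. Of all genes above 0 in both libraries, 50.6% had a ratio above 1. The intervals of Ccnd1 (0.939 to 1.03) and Gata3 (0.335 to 1.52) included 1, so these 2 genes could not be placed on either side. Snai1 and Snai2, repressors of epithelial genes, fell with ratios of 0.393 (0.354 to 0.433) and 0.485 (0.416 to 0.561). The call of Snai2 ended with scaling by the median ratio (0.501). Cdkn1a and Id3 were the most abundant, with ratios of 0.695 and 0.796. Ptcra and Il2ra, genes of T cells, were listed at 0 at D0 and had 4 and 6 fragments at D7. The counting intervals at D7 began at 0.0542 FPKM for Ptcra and 0.0284 FPKM for Il2ra. Both began below the limits of 3 fragments at D0 (0.127 and 0.0330 FPKM). No ratio was formed for either gene, and a difference between the stages was not tested. Proliferation genes moved in the same libraries, with 8 of 8 lower by at least 2.0-fold. The part of proliferation in these values was not tested.

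Among the other pathway genes with at least 20 fragments over both libraries, the gene with the log2 ratio nearest to each of the 7 Notch genes that also had at least 20 fragments was looked up. Dll1, Dll4 and Heyl had fewer and were left out. With 2 libraries this likeness rests on a single difference per gene. The nearest to Hes1 was Snai1, with a difference in log2 ratio of 0.03, and the nearest to Notch3 was Dtx2, with 0.01. Jag1 had no close neighbour among the 73 genes compared, the nearest being Kat2b with a difference of 0.41. Rbpj was the nearest to Notch4, Adam10 to Notch2, Rfng to Notch1 and Mib1 to Hey1, each with a difference of at most 0.02. Counting error in the ratios of Hey1 (0.498 to 3.40) and Notch4 (0.322 to 0.954) is far wider than that. Their nearest genes are therefore not settled by these values.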

How the data were processed

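RNA-Seq of 1 library at D0 and 1 at D7 was analysed. The authors removed low-quality reads, used SOAP2 for alignment against genome and gene sequences (build mm10), and computed the FPKM values deposited for each gene. The submitters' processing notes also list Bowtie2, with no role. Of 27324 rows, 3963 held no value and were not used. Ratios of D7 to D0 were formed from FPKM above 0 in both libraries, without a pseudocount or rescaling.

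Fragments were recovered from 600 genes of a single exon of at least 600 bp in the annotation (GENCODE M21, mm10). With 180 bp at D0 and 183 bp at D7 taken from the deposited length, 100% of 79 values at D0 and 89 at D7 of up to 20 fragments were whole within 0.1. Depth and length correction were searched to make this share large, among the lowest depths that fitted. The share is therefore the criterion of the fit and not a separate check of it. Elsewhere the transcript named in the table gave the length, so that those fragments are approximate. Ratio intervals are exact Clopper-Pearson intervals. Intervals of relative levels used a normal approximation on the log scale, and those of single levels are exact Poisson intervals.

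The members, lists and alternatives were chosen with earlier results of these data known. All 10 members are named. Of the other pathway genes, those past 2.0-fold with FPKM of at least 1, those listed at 0 in 1 library, up to 2 of the most abundant of each list and the nearest in log2 ratio to a member are named. Jag2, Nrarp, Hey2, Maml1, Maml2, Maml3, Hes5, Helt, Ccnd1, Gata3, Dlk2, Cntn1, Bhlhe41 and Neurl1b were named after their values were seen. Scripts were tested on simulated data. Computation used scipy 1.17.1, numpy 2.4.6 and pandas 2.3.3 under Python 3.11.15, with plots by matplotlib 3.10.9.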

Additional observations from a re-analysis of the deposited data

How the results depend on the processing

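No paired analysis was possible because each stage had 1 library, and for the same reason no replicate could be left out. Each ratio was recomputed with a pseudocount of 0.1 or 1, as TPM, after division by the median ratio, the upper quartile or a trimmed mean ratio, and with values under 0.01 set to 0.01 and each library divided by its median. None of the 9 ratios changed direction under these 7 settings. The last setting multiplied every ratio by 0.783 and moved most values beyond counting error, to 1.17 for Notch1, 0.663 for Notch2, 1.497 for Notch3, 2.10 for Jag1 and 0.302 for Hes1. It also brought Notch4 to 0.441, past 0.5. A pseudocount of 1 brought Jag1 to 2.41 and Heyl to 1.06, and a pseudocount of 0.1 also took Heyl below 2.0. The other scalings changed every ratio by a factor between 0.967 and 1.03.

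The count of 2 higher Notch genes became 1 with either pseudocount, with an FPKM of at least 1 in a library, with at least 20 fragments and at a threshold of 4.0-fold. The count of 1 lower gene became 2 with the floor and library median and at 1.5-fold, and 0 at 4.0-fold. Of the other pathway genes, 10 higher and 7 lower became 4 and 4 with a pseudocount of 1, and 19 and 15 at 1.5-fold. The lower ones were 13 with the floor and library median and 1 at 4.0-fold, and the higher ones were 5 at an FPKM of at least 1. Depth limits Dll1, Dll4, Hey1 and Heyl, which had at most 11 fragments in a library.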
